A study of Homo sapiens with 4 samples.

Results

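The EGF receptor family and its ligands were followed in H1299 cells in which TTC28 had been targeted. The set comprised 10 genes taken by name from the 58735 genes of the deposited table: the receptor genes EGFR, ERBB2, ERBB3 and ERBB4, the ligand genes AREG, EREG, HBEGF, TGFA and NRG1, and LRIG1, which encodes an inhibitor of the receptors. H1299 is an established human non-small cell lung cancer line. The series holds 4 libraries of untreated cells, 2 of TTC28 knockout cells made with CRISPR/Cas9 (TTC28-KO) and 2 of wild-type cells (WT), all grown in RPMI1640 with fetal bovine serum. The labels do not say whether the knockout cells were a clone or a pool, nor whether replicates came from separate cultures, so that p-values measure only the spread between these libraries.

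The receptors of this family are tyrosine kinases of the plasma membrane that pair with themselves or with each other when a ligand binds. EGFR binds TGF-alpha, amphiregulin, epiregulin and HB-EGF, the last 2 of which also bind ERBB4, while ERBB3 and ERBB4 bind the neuregulins and ERBB2 has no known ligand of its own and acts as a partner. The ligands are made as membrane-anchored precursors and released by proteases such as ADAM17 and ADAM10, and the active receptors feed the RAS-ERK and PI3K pathways. In lung cancer, mutation or amplification of EGFR and ERBB2 is a well known driver.

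The coding sequence of the catalytic loop of the kinase domain is shown because ERBB3, the member that differed most between the groups, departs there from the active kinases. Each line gives 24 bases of the coding strand, 5′ to 3′, from the longest coding transcript of GENCODE release 29 on hg38, and each stretch lay in exon 21. Capitals mark the codon that in active kinases encodes the catalytic aspartate.
EGFR (chr7:55191752-55191775, plus strand): caccgcGACctggcagccaggaac
ERBB2 (chr17:39725082-39725105, plus strand): cacaggGACttggccgctcggaac
ERBB3 (chr12:56097818-56097841, plus strand): catagaAACctggctgcccgaaac
ERBB4 (chr2:211431044-211431067, minus strand): catcggGATttggcagcccgtaat
Counted from 1 at the 5′ end of the stretch and with EGFR as the base of comparison, the marked codon carried G7A in ERBB3, C9T in ERBB4 and no difference in ERBB2. GAC and GAT both encode aspartate, while AAC encodes asparagine. Over the whole stretch ERBB2, ERBB3 and ERBB4 differed from EGFR at 6, 7 and 7 bases. Of these differences only G7A in ERBB3 changes the encoded residue. ERBB3 is known as a receptor with little kinase activity that signals through its partners, ERBB2 above all.

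Library totals lay between 25120500 and 28885443 counts. TTC28, the targeted gene, was at 2.96 and 2.99 FPKM (fragments scaled to gene length and to library size) in TTC28-KO libraries, against 4.88 and 5.44 FPKM in WT libraries. The knockout libraries were below the wild-type libraries and still held TTC28 transcript. Mitochondrially encoded genes took 8.61% and 10.16% of counts in TTC28-KO libraries, against 6.07% and 5.87% in WT libraries. Of 5 epithelial markers, KRT8 and KRT18 passed 1 FPKM while CDH1, EPCAM and KRT19 stayed near 0, and the 4 mesenchymal markers all passed 1 FPKM. The summed epithelial markers came to 212 and 198 FPKM in TTC28-KO libraries and to 168 and 162 FPKM in WT libraries, a sum that rests on KRT8 and KRT18 alone. The mesenchymal markers summed to 381 and 370 FPKM in TTC28-KO libraries and to 332 and 317 FPKM in WT libraries. Most of that sum was VIM, at 366 and 353 FPKM in TTC28-KO libraries and 316 and 300 FPKM in WT libraries. The other mesenchymal markers did not move alike: CDH2 was higher (log2 fold change 0.31, adjusted p = 0.00322), ZEB1 did not pass (0.01, adjusted p = 0.932), and FN1 was lower, at 1.19 and 1.35 FPKM in TTC28-KO libraries against 3.08 and 3.38 FPKM in WT libraries (log2 fold change -1.34, adjusted p = 1.12e-07). Markers of lung alveolar cells, leukocytes, endothelium and fibroblasts each summed to less than 1 FPKM in every library, with SFTPC, CD3E and LUM at 0 counts throughout. In bulk libraries fewer cells of a kind and less RNA per cell cannot be told apart.

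Of the 10 genes, 7 reached at least 1 FPKM in at least 2 libraries and were tested, while ERBB4, AREG and EREG did not. In the knockout, ERBB3, LRIG1 and ERBB2 were higher, TGFA was lower, and EGFR, HBEGF and NRG1 did not pass the test (edgeR's quasi-likelihood test, Benjamini-Hochberg adjusted p under 0.05 over 13079 tested genes). The same test called 50.3% of all tested genes, 25.1% of them as higher and 25.2% as lower, so that 4 calls among 7 genes is near the background. In 75.5% of all tested genes the FPKM values of the 2 groups did not overlap, so that a lack of overlap is common here. The 7 had a median of 0.05 on the log2 scale, and all tested genes a median of 0.00. ERBB3 entered the test through its 2 TTC28-KO libraries alone, both WT libraries being under 1 FPKM. The filter itself puts such a gene higher in TTC28-KO, in FPKM and without overlap. These counts over the tested members are therefore only a description.

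**Figure D1:**
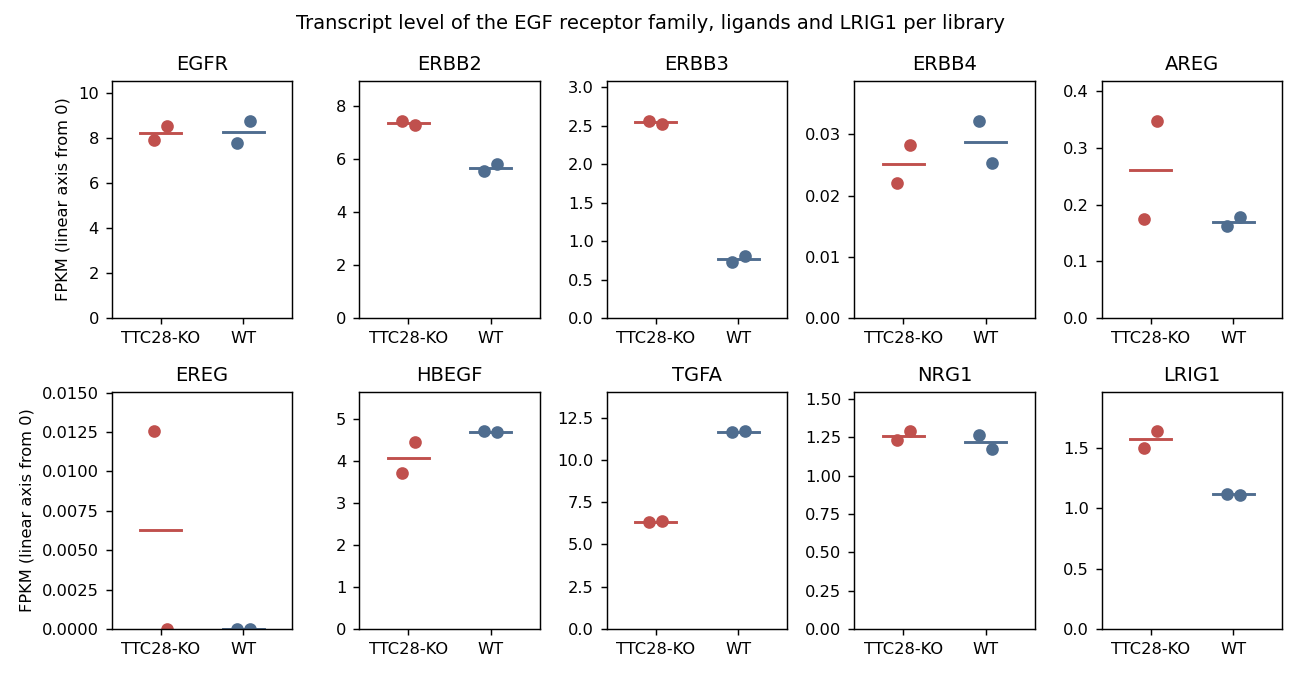
Transcript levels (FPKM, linear axes from 0 with a scale of their own in each panel) of the 10 genes, with a point for each library, TTC28-KO in red on the left and WT in blue on the right, and a line at the mean of 2 libraries. ERBB3 lies at 2.57 and 2.53 FPKM in TTC28-KO libraries against 0.726 and 0.808 FPKM in WT libraries, TGFA at 6.31 and 6.39 FPKM against 11.7 and 11.7 FPKM, and the libraries of EGFR and NRG1 overlap.

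Among the receptors, ERBB3 was 3.33-fold and ERBB2 1.30-fold higher in the knockout, and EGFR did not pass the test. ERBB3 (ENSG00000065361, hg38 chromosome 12, 56076799 to 56103505, plus strand) encodes the neuregulin receptor that depends on partner kinases. It had 647 and 558 counts in TTC28-KO libraries, or 2.57 and 2.53 FPKM, against 172 and 199 counts in WT libraries, or 0.726 and 0.808 FPKM. Both knockout libraries were well above both wild-type libraries, and the replicates lay close together. The mean was 2.55 ± 0.0288 FPKM in TTC28-KO libraries and 0.767 ± 0.0580 FPKM in WT libraries (SD, n = 2 each), a 3.33-fold difference (95% interval 2.82 to 3.92) and a log2 fold change of 1.73 (SE 0.109, adjusted p = 7.47e-08). Of the 13079 tested genes, 102 had a higher log2 fold change than ERBB3. Since ERBB3 was tested only because its TTC28-KO libraries passed the limit, this rank is only a description. When all 30992 genes with a count were tested, its log2 fold change was 1.72. In the plain limma fit on log2(FPKM + 1), where the pseudocount is of the size of these levels, the log2 fold change was 1.01 (adjusted p = 0.00152). The summed epithelial markers, the summed mesenchymal markers and the mitochondrial share, given above, were also higher in both TTC28-KO libraries, and their part in the result was not tested.

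ERBB2 (ENSG00000141736, chromosome 17, 39687914 to 39730426, plus strand) encodes the partner receptor without a ligand. It had 2145 and 1835 counts in TTC28-KO libraries, or 7.46 and 7.28 FPKM, against 1501 and 1636 counts in WT libraries, or 5.55 and 5.82 FPKM. The groups did not overlap, as in 75.5% of all tested genes, and the step between them was much smaller than for ERBB3. The log2 fold change was 0.38 (SE 0.0656, adjusted p = 0.00036), or 1.30-fold with a 95% interval from 1.18 to 1.43. On the opposite strand MIEN1 and PGAP3 share 5.53% and 1.88% of the exonic bases of ERBB2. PGAP3 had 557 and 481 counts in TTC28-KO libraries and 292 and 288 counts in WT libraries. MIEN1 had 394 and 294 counts in TTC28-KO libraries and 437 and 383 counts in WT libraries. Whether counting used strand is not known from the labels or headers, so that reads of the shared stretches cannot be assigned.

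EGFR (ENSG00000146648, chromosome 7, 55019021 to 55211628, plus strand), the receptor of most of these ligands, had the highest FPKM of the 4 receptors in both groups. It was at 7.91 and 8.52 FPKM in TTC28-KO libraries (2760 and 2607 counts), against 7.77 and 8.78 FPKM in WT libraries (2548 and 2993 counts). The 2 groups overlapped, and the replicates of WT differed more than the group means. The log2 fold change was -0.01 (SE 0.0719, adjusted p = 0.946), and the 95% interval of the ratio of TTC28-KO to WT ran from 0.894 to 1.11. ERBB4 (ENSG00000178568, chromosome 2, 211375717 to 212538841, minus strand), the other neuregulin receptor, was close to absent. It had 8 and 9 counts in TTC28-KO libraries and 11 and 9 counts in WT libraries, all under 0.04 FPKM. The ratio of its summed counts after scaling was 0.870, with a 95% exact Clopper-Pearson interval from 0.428 to 1.75 that covers counting error only, so that no difference was detectable at this depth.

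FPKM is scaled to the deposited gene length, which was 12521 bases for EGFR, 10321 for ERBB2 and 9039 for ERBB3. Levels of different receptors can be set side by side only as far as these lengths match the transcripts present, which was not measured. The same limit holds for all levels compared between genes here, while a change of a share or ratio between the groups uses the same lengths on both sides. The 4 receptors summed to 18.0 and 18.4 FPKM in TTC28-KO libraries and to 14.1 and 15.4 FPKM in WT libraries. ERBB3 made up 14.3% and 13.8% of this sum in TTC28-KO libraries, against 5.16% and 5.24% in WT libraries. EGFR made up 44.0% and 46.4% in TTC28-KO libraries, against 55.2% and 56.9% in WT libraries. The share of ERBB3 was thus larger and that of EGFR smaller in both knockout libraries, while ERBB2 kept a like share, at 41.5% and 39.6% in TTC28-KO libraries and 39.4% and 37.7% in WT libraries. In FPKM, ERBB2 exceeded ERBB3 by 2.90-fold and 2.88-fold in TTC28-KO libraries and by 7.64-fold and 7.20-fold in WT libraries. These shares and ratios are descriptions without a test, because the smallest two-sided p of an exact permutation test with 2 libraries a group is 0.333.

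**Figure D2:**
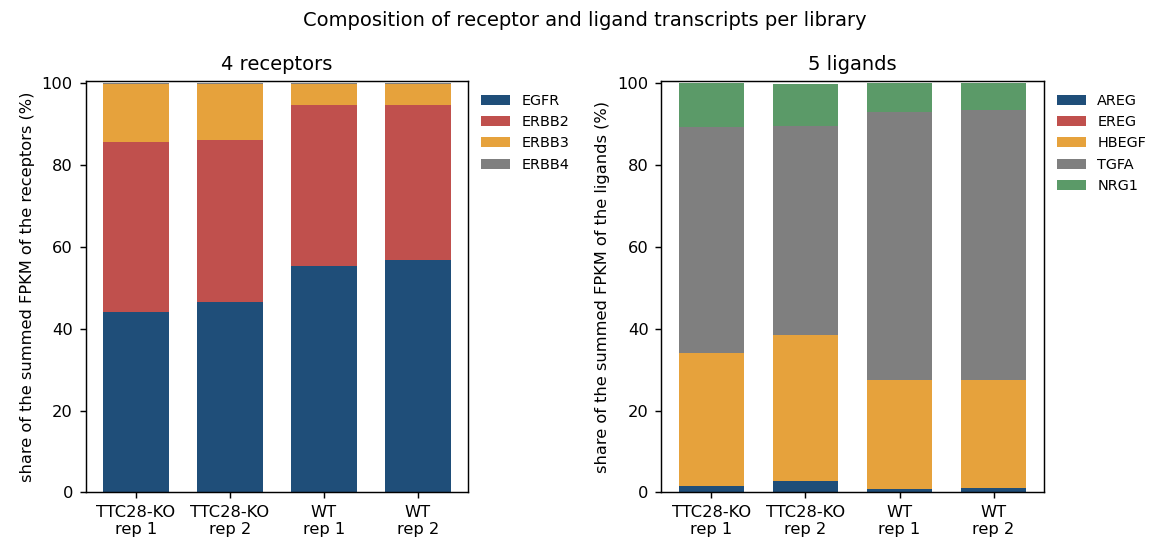
Share (%) of each gene in the summed FPKM of the 4 receptors (left) and of the 5 ligand members (right), with a stacked bar for each library, TTC28-KO left of WT. ERBB3 fills 14.3% and 13.8% of the receptor bars in TTC28-KO libraries against 5.16% and 5.24% in WT libraries, and TGFA fills 55.2% and 51.1% of the ligand bars in TTC28-KO libraries against 65.5% and 65.9% in WT libraries.

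Among the ligands, TGFA was lower in the knockout and no other member passed the test. TGFA (ENSG00000163235, chromosome 2, 70447280 to 70554193, minus strand) encodes TGF-alpha, a ligand of EGFR. It had 873 and 774 counts in TTC28-KO libraries, or 6.31 and 6.39 FPKM, against 1518 and 1581 counts in WT libraries, or 11.7 and 11.7 FPKM. Replicates agreed closely, and the groups were far apart. The mean was 6.35 ± 0.0523 FPKM in TTC28-KO libraries and 11.7 ± 0.0152 FPKM in WT libraries (SD, n = 2 each), with a log2 fold change of -0.88 (SE 0.0740, adjusted p = 9.01e-07), which puts the knockout at 0.544 of WT (95% interval 0.487 to 0.608). Of the 13079 tested genes, 475 had a lower log2 fold change.

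HBEGF (ENSG00000113070, chromosome 5, 140332843 to 140346631, minus strand) encodes the heparin-binding ligand of EGFR and ERBB4. It was at 3.71 and 4.46 FPKM in TTC28-KO libraries (312 and 329 counts), against 4.72 and 4.70 FPKM in WT libraries (373 and 386 counts). Both knockout libraries were below both wild-type libraries, but they differed from each other by more than replicate 2 of TTC28-KO differed from WT. The log2 fold change was -0.20 (SE 0.118, 95% interval -0.46 to 0.05, adjusted p = 0.169). The call turned on this library and on the scale. Without TTC28-KO replicate 2 the log2 fold change was -0.35 (adjusted p = 0.0302), without TTC28-KO replicate 1 it was -0.07 (adjusted p = 0.668), and on a TPM scale, where each library is set to the same sum of counts per length, it was -0.37 (adjusted p = 0.0116). That scale moved the median of all tested genes to -0.166.

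NRG1 (ENSG00000157168, chromosome 8, 31639386 to 32767959, plus strand), a neuregulin and ligand of ERBB3 and ERBB4, was at 1.23 and 1.29 FPKM in TTC28-KO libraries (389 and 357 counts), against 1.26 and 1.18 FPKM in WT libraries (375 and 363 counts). The groups overlapped. The log2 fold change was 0.05 (SE 0.107, adjusted p = 0.719), and the 95% interval of the ratio of TTC28-KO to WT ran from 0.883 to 1.21. NRG1 was at 0.480 and 0.511 of the level of ERBB3 in TTC28-KO libraries and at 1.74 and 1.46 times that level in WT libraries, in FPKM.

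The remaining ligand members were barely detected. AREG (ENSG00000109321, chromosome 4, 74445134 to 74455009, plus strand), which encodes amphiregulin, had 8 and 14 counts in TTC28-KO libraries and 7 and 8 counts in WT libraries. The higher value was that of TTC28-KO replicate 2 alone, and the ratio of summed counts after scaling was 1.50 (95% exact Clopper-Pearson interval 0.744 to 3.11). EREG (ENSG00000124882, chromosome 4, 74365143 to 74388751, plus strand), which encodes epiregulin, had 2 and 0 counts in TTC28-KO libraries and 0 and 0 counts in WT libraries. A count of 0 allows up to 3 counts, or 0.0200 and 0.0193 FPKM in WT replicates 1 and 2, and no ratio is given. When all 30992 genes with a count were tested, the adjusted p was 0.848 for ERBB4, 0.59 for AREG and 0.579 for EREG.

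The 5 ligand members summed to 11.4 and 12.5 FPKM in TTC28-KO libraries, against 17.8 and 17.7 FPKM in WT libraries. This sum is not that of all expressed ligands. It leaves out NRG2, a neuregulin gene outside the members that went the other way. NRG2 was at 9.46 and 9.56 FPKM in TTC28-KO libraries and at 6.14 and 6.16 FPKM in WT libraries. Most of the gap in the sum of the 5 members was TGFA, which made up 55.2% and 51.1% of that sum in TTC28-KO libraries and 65.5% and 65.9% in WT libraries. HBEGF made up 32.4% and 35.7% in TTC28-KO libraries and 26.5% and 26.5% in WT libraries. TGFA was at 0.798 and 0.749 of the level of EGFR in TTC28-KO libraries, in FPKM, and at 1.50 and 1.33 times that level in WT libraries. In order of mean FPKM, TTC28-KO libraries had EGFR (8.22), ERBB2 (7.37), TGFA (6.35), HBEGF (4.09), ERBB3 (2.55), LRIG1 (1.57), NRG1 (1.26), AREG (0.261), ERBB4 (0.0252) and EREG (0.00628). In WT libraries the order was TGFA (11.7), EGFR (8.27), ERBB2 (5.69), HBEGF (4.71), NRG1 (1.22), LRIG1 (1.12), ERBB3 (0.767), AREG (0.170), ERBB4 (0.0288) and EREG (0). TGFA thus stood below EGFR and ERBB2 in TTC28-KO and above them in WT, and ERBB3 passed LRIG1 and NRG1 in TTC28-KO. The libraries of neighbours in either order did not overlap, although ERBB4 and EREG rest on few counts.

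LRIG1 (ENSG00000144749, chromosome 3, 66378797 to 66501263, minus strand) encodes a transmembrane protein that binds the receptors and promotes their degradation. It had 294 and 281 counts in TTC28-KO libraries, or 1.50 and 1.64 FPKM, against 206 and 213 counts in WT libraries, or 1.12 and 1.11 FPKM. Both knockout libraries were above both wild-type libraries, and 75.5% of all tested genes had groups that did not overlap. The log2 fold change was 0.49 (SE 0.125, adjusted p = 0.00501), or 1.41-fold with a 95% interval from 1.17 to 1.70. The call was lost with limma, at adjusted p = 0.0521 with a pseudocount of 1 and adjusted p = 0.055 with a pseudocount of 0.1, and the authors' deposited table gives an adjusted p of 0.0478. SLC25A26 on the opposite strand shares 12.9% of the exonic bases of LRIG1 and had 243 and 208 counts in TTC28-KO libraries and 309 and 359 counts in WT libraries. For ERBB3 and TGFA the authors' deposited table gives log2 fold changes of 1.72 and -0.89.

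Each tested member was set beside its chromosomal neighbours, the 25 tested genes on each side. The starts of these genes ran from 54262615 to 56712428 around ERBB3. Around EGFR they ran from 44467897 to 65373799 and around LRIG1 from 53884410 to 97764521, so that neighbours there can lie far away. Around TGFA, 30 of 50 neighbours were lower and 2 higher in TTC28-KO, and their median on the log2 scale was -0.36. Around ERBB3, 32 of 50 were higher and 2 lower, with a median of 0.34. KRT8 and KRT18, on which the summed epithelial markers rest, also lie on chromosome 12, with starts at 52897187 and 52948871. The median of the neighbours was 0.35 for each of these marker genes. TGFA and ERBB3 thus moved in the direction of the median of their neighbours and lay beyond that median. With the median of the neighbours removed, TGFA was at -0.52 (adjusted p = 8.67e-05), ERBB3 at 1.39 (adjusted p = 6.05e-07), ERBB2 at 0.44 (adjusted p = 0.000133) and LRIG1 at 0.64 (adjusted p = 0.000997). EGFR stood among genes of which 23 of 50 were lower and 4 higher, with a median of -0.32, and relative to them it came to 0.32 (adjusted p = 0.00293), where its own value was -0.01. The median was removed as a fixed value, so that its own error is not part of these adjusted p-values. Copy number was not measured, so that its part in these values was not tested.

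**Figure D3:**
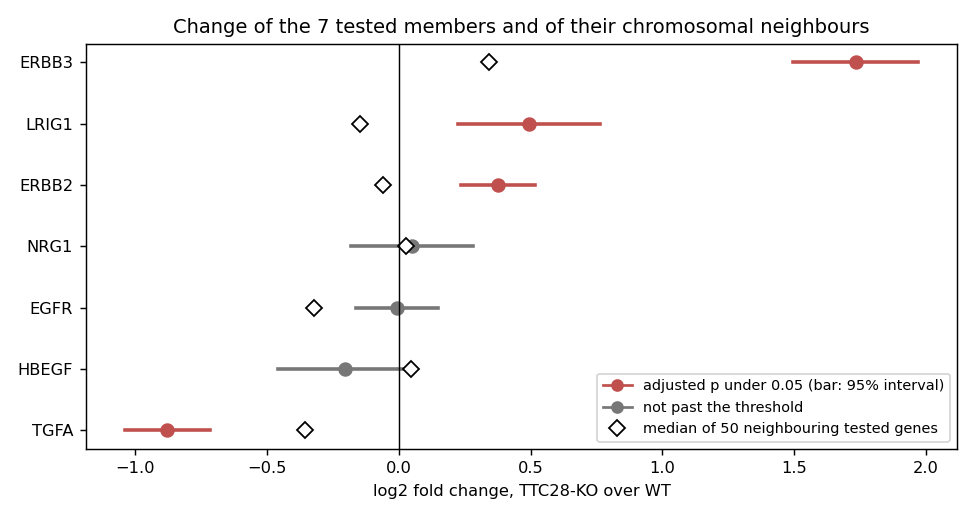
Log2 fold change of TTC28-KO over WT (x axis) for the 7 tested members, with 95% intervals, in red where the adjusted p was under 0.05 and grey where not; open diamonds give the median of the 50 neighbouring tested genes. ERBB3 (1.73) and TGFA (-0.88) lie beyond their neighbours' medians of 0.34 and -0.36, and EGFR (-0.01) lies above its neighbours' median of -0.32.

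The genes with the most similar pattern were sought among 6713 protein-coding genes whose mean over the libraries reached 5 FPKM, by the Euclidean distance between log2 CPM (counts scaled to library size) values centred per gene over the 4 libraries. Nearest to ERBB3 were MGAT5 (distance 0.0944), an N-glycan branching enzyme gene, TNS2 (0.161), which encodes a tensin of focal adhesions, and JUP (0.166), which encodes plakoglobin. Nearest to TGFA were PRDM13 (0.0199), PDCD6 (0.0211) and NAA50 (0.0413), and nearest to EGFR were FAM208A (0.0145), PIK3C2A (0.0294) and USP24 (0.0301). With 4 libraries in 2 groups such a pattern is mainly the size of the step between the groups, and many genes share it. MGAT5 had a log2 fold change of 1.70 (SE 0.0729) and PRDM13 of -0.88 (SE 0.0861), close to 1.73 for ERBB3 and -0.88 for TGFA.

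The other genes of the pathway were counted in lists of ligands, sheddases, signal carriers, inhibitors and ERK output genes. Of the 64 genes, 48 were tested, of which 15 were higher, 13 lower and 20 did not pass, and their median on the log2 scale was 0.01, beside 50.3% called and a median of 0.00 over all tested genes. The calls thus went in both directions at about the background rate. The split depended on the scaling, with 10 higher and 22 lower on the TPM scale. Of the 6 other EGF family ligands only NRG2, a neuregulin, was tested. It was at 9.46 and 9.56 FPKM in TTC28-KO libraries against 6.14 and 6.16 FPKM in WT libraries, with a log2 fold change of 0.63 (SE 0.0791, adjusted p = 2.55e-05). Its FPKM was the highest of the neuregulin genes in both groups. BTC, the gene of betacellulin, was at 0.790 and 0.829 FPKM in TTC28-KO libraries and 0.474 and 0.326 FPKM in WT libraries, under the limit for a test, and EPGN had no count. With the limit lowered to 0.1 FPKM, BTC was tested beside NRG2, and both were called higher.

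Of 7 tested genes of ligand shedding and transport, 5 were higher, 1 was lower and 1 did not pass, and their median on the log2 scale was 0.27, beside 25.1% of all tested genes called higher and 25.2% lower. The number higher was 3 without WT replicate 1 and 2 on the TPM scale. The gene that was lower was ADAM17, the main sheddase of TGF-alpha, amphiregulin and HB-EGF. ADAM17 was at 4.43 and 4.44 FPKM in TTC28-KO libraries against 7.31 and 7.34 FPKM in WT libraries, with a log2 fold change of -0.72 (SE 0.0662, adjusted p = 1.85e-06). The median of its neighbours was -0.71, and with it removed ADAM17 was at -0.01 (adjusted p = 0.89). RHBDF1, which encodes an iRhom that carries ADAM17 to the cell surface, was at 5.97 and 5.65 FPKM in TTC28-KO libraries against 3.69 and 3.91 FPKM in WT libraries (log2 fold change 0.62, adjusted p = 6.89e-05). ADAM15, another membrane protease, had a log2 fold change of 0.47 (SE 0.0646, adjusted p = 5.56e-05). The sheddase gene ADAM10 did not pass, at a log2 fold change of 0.14 (adjusted p = 0.0779).

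Of 17 tested genes of receptor adaptors and the RAS-ERK cascade, 4 were higher, 4 lower and 9 did not pass, with a median of -0.10. Beside this, 25.1% of all tested genes were called higher and 25.2% lower. The number lower was 7 under total-count scaling and 9, with 3 higher, on the TPM scale. PTPN11, the gene of the phosphatase SHP2 that carries receptor signals to RAS, was at 28.5 and 28.5 FPKM in TTC28-KO libraries against 37.1 and 40.0 FPKM in WT libraries (log2 fold change -0.43, adjusted p = 8.26e-05). SOS2, a RAS exchange factor gene, had a log2 fold change of -0.53 (SE 0.0796, adjusted p = 0.000114). The median of its neighbours was -0.31, and with it removed SOS2 was at -0.22 (adjusted p = 0.0351). PLCG1, which encodes a phospholipase that binds active receptors, had a log2 fold change of 0.37 (SE 0.0601, adjusted p = 0.000211). GRB2 and MAP2K2 were within 0.05 of 0 on the log2 scale and did not pass.

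Of 15 tested genes of receptor degradation and inhibition, 3 were higher, 4 lower and 8 did not pass, with a median of -0.03. The shares over all tested genes were 25.1% higher and 25.2% lower. The number lower was 2 without WT replicate 1, without WT replicate 2 and with limma at either pseudocount, and 7 on the TPM scale. A filter of 5 FPKM left 10 genes, 1 of them higher and 2 lower. The largest fall was that of ERRFI1, which encodes MIG6, a feedback inhibitor that binds the kinase domain of EGFR and ERBB2. ERRFI1 was at 70.4 and 73.3 FPKM in TTC28-KO libraries, against 176 and 179 FPKM in WT libraries. Both knockout libraries lay far below both wild-type libraries, with a log2 fold change of -1.30 (SE 0.0644, adjusted p = 8.38e-09), and the median of its neighbours was 0.04. LRIG1 and ERRFI1, both inhibitors of these receptors, thus differed in opposite directions. The receptor-type phosphatase gene PTPRG was at 1.47 and 1.58 FPKM in TTC28-KO libraries against 0.538 and 0.680 FPKM in WT libraries (log2 fold change 1.32, adjusted p = 1.75e-06), and like ERBB3 it entered the test through its TTC28-KO libraries alone. PTPRJ, a receptor-type phosphatase gene known to act on EGFR, had a log2 fold change of 0.57 (SE 0.0883, adjusted p = 0.000148). RNF41, the ubiquitin ligase gene for ERBB3, was at 12.7 and 12.7 FPKM in TTC28-KO libraries and 12.6 and 12.9 FPKM in WT libraries and did not pass (adjusted p = 0.981). RNF41, ADAM10, BTC, EPGN, GRB2 and MAP2K2 were named after their values were seen.

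Of 8 tested genes of a list used as a readout of ERK pathway output, 2 were higher, 4 lower and 2 did not pass, with a median of -0.22. Over all tested genes 25.1% were called higher and 25.2% lower, and the list is too short to be told from these shares. PHLDA1 was at 40.1 and 42.3 FPKM in TTC28-KO libraries against 63.9 and 64.6 FPKM in WT libraries, with a log2 fold change of -0.64 (SE 0.0636, adjusted p = 3.66e-06). ETV4, an ETS transcription factor gene, had a log2 fold change of -0.71 (SE 0.0953, adjusted p = 4.59e-05). SPRY4, which encodes a feedback inhibitor of the pathway, went the other way, at 34.1 and 34.2 FPKM in TTC28-KO libraries against 24.0 and 25.5 FPKM in WT libraries (log2 fold change 0.47, adjusted p = 3.62e-05). Called genes of the list thus lay on both sides of 0.

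**Figure D4:**
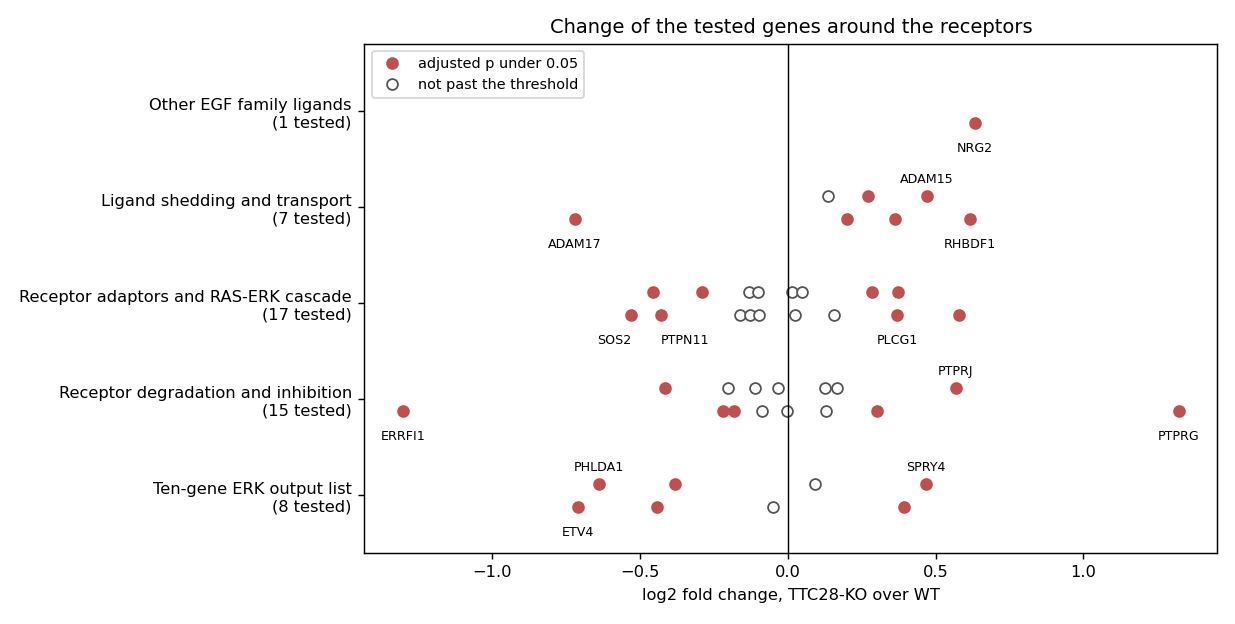
Log2 fold change of TTC28-KO over WT (x axis) for each of the 48 tested genes in 5 lists (y axis), filled where the adjusted p was under 0.05 and open where not, with the genes of smallest p in each list named; the vertical spread of points has no meaning. Filled points lie on both sides of 0 in each list with more than 1 tested gene, from ERRFI1 (-1.30) to PTPRG (1.32).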

How the data were processed

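Total RNA was sequenced from 4 libraries (Illumina TruSeq RNA kit, per the labels' protocols). The submitters' processing notes name HISAT2 2.0.5 and the hg38 build. Sources used here name no counter, strand setting or annotation. The authors deposited raw counts per gene and library, and FPKM made from these counts, the gene length (given in bases in the deposited table) and an effective size of 0.965 to 1.02 of each total. The deposited log2 fold changes (knockout over wild type), p-values and adjusted p-values come from a test that the headers do not name. The authors' mean scaled signal per group, per the file headers, was not used.

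Libraries were grouped by their titles. The 13079 genes that reached 1 FPKM in 2 or more libraries were tested on counts with edgeR 4.0.16 (R 4.3.3), TMM factors, no covariates, two-sided, Benjamini-Hochberg threshold 0.05. The SE and 95% intervals come from the same fit. Of the deposited gene coordinates 99.98% equal those of GENCODE release 29, which gave exon overlaps. Members and lists were chosen with earlier results of these data known. All members are named, and for each list the 3 genes with the smallest p. The further genes named, and the marker genes, are given as values of their lists. Intervals on counts cover counting error only. Replicates differed by more than sampling noise (chi-square over degrees of freedom 10.6 in TTC28-KO, 4.75 in WT). Alternatives used limma 3.58.1 and DESeq2 1.42.0.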

Additional observations from a re-analysis of the deposited data

How the results depend on the processing

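ERBB3, ERBB2 and TGFA kept their direction and call under each of the 17 alternatives that tested them, with log2 fold changes from 1.01 to 1.81, from 0.21 to 0.44 and from -1.04 to -0.52; a filter of 5 FPKM removed ERBB3. At the limit of 1 FPKM, ERBB3 entered the test through its TTC28-KO libraries alone, so that its kept call there is only a description. LRIG1 lay between 0.28 and 0.64, and its call was lost with limma only. Values near 0 changed sign: EGFR was at 0.01 under a filter of 5 FPKM, from -0.09 to 0.08 when each library was left out (0.05 without TTC28-KO replicate 1, 0.08 without WT replicate 2), and 0.32 with the local median removed, and NRG1 was at -0.01 under total-count scaling, -0.12 on the TPM scale and from -0.01 (without WT replicate 2) to 0.10 when each library was left out. HBEGF passed the threshold on the TPM scale and without TTC28-KO replicate 2. Of the members, 3 were higher and 1 lower. With the local median removed 4 were higher, as EGFR also passed (adjusted p = 0.00293), and limma at either pseudocount gave 2 higher. The filter of 5 FPKM, which left 3 members to test, gave 1 higher, the TPM scale gave 2 lower, and leaving out each library gave 3 higher throughout and 1 to 2 lower. Over all tested genes, 3281 were higher and 3300 lower, against 1924 and 5304 on the TPM scale and 2169 and 2177 of the 7490 genes left by the filter of 5 FPKM; leaving out each library gave 2394 to 3193 higher and 2460 to 3263 lower. Of the pathway lists, 13 genes were lower, and 22 on the TPM scale; leaving out each library gave 11 to 16 higher and 11 to 14 lower. Total-count scaling gave 2706 higher and 4051 lower. With the replicate number as a block, 3515 genes were higher and 3593 lower, and the members' calls did not differ; the labels do not say that a number pairs libraries, and deviations of same-numbered libraries had a correlation of -0.00144 across genes. Leaving out a library leaves a group with a lone library, assumed to vary like the others. Depth limits ERBB4, AREG and EREG, which had 0 to 14 counts a library.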
